A study of Mus musculus with 4 samples.

Results

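The cells described here were Thbs1-high, Chil3-low monocytes of mouse LLC tumors (Lewis lung carcinoma, a transplanted lung cancer line). They made up 2364 of the 55058 cell barcodes kept from 4 single-cell RNA sequencing libraries. They were chosen by their own counts of unique molecular identifiers (UMIs), each of which stands for 1 captured messenger RNA molecule. A barcode was taken as a member when it held at least 5 UMIs of Thbs1 and at least 3 of Lyz2, at most 2 of Chil3, at most 4 over C1qa, C1qb and C1qc together, at most 1 over Csf3r and Retnlg together and at most 1 of Rhox5. Barcodes under 200 genes or over 20% mitochondrial UMIs had been set aside beforehand. The lower limits ask for a myeloid cell rich in thrombospondin 1, and the upper limits set aside classical monocytes (Chil3), macrophages (C1q), neutrophils (Csf3r, Retnlg) and tumor cells (Rhox5).

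All tumors grew under the skin of female C57BL/6N mice (C57/BL6N in the sample labels) aged 6 to 8 weeks and were taken 72 h after treatment. The radiation naive group (NT, labelled mock) was 1 library made from 3 tumors pooled. Tumors of the radiotherapy group (RT) were captured 1 per library (RT1 to RT3, 3 libraries) after they had received 24 Gy as 3 fractions of 8 Gy on days 7 to 9 after injection, at about 100 mm3. The tumors are grafts of a single cell line, and the pool gives no measure of the spread between NT tumors. Because NT is 1 library, the comparison of NT with RT carries no test and no p-value. Values of single libraries are printed, those of RT always in the order RT1, RT2, RT3, with the mean ± SD of the RT libraries. Intervals are at 95% (the exact methods of Clopper-Pearson for a share and of Poisson for a sum of UMIs) and take in counting error alone. All 3 RT ratios have one NT library in common, and any error in it is carried by each of them.

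Monocytes leave the bone marrow with the help of Ccr2 and enter inflamed tissue and tumors, where they give rise to macrophages and antigen presenting cells. Classical mouse monocytes carry Ly6c2, Plac8 and Chil3, and these genes wane while complement C1q genes come on as the cells mature to macrophages. Thbs1 encodes thrombospondin 1, a secreted matricellular protein that binds Cd36 and Cd47, restrains the growth of vessels and can release TGF-beta from its latent form. Cxcl3 encodes a chemokine that draws neutrophils, Fn1 encodes fibronectin, and Lyz2 encodes the lysozyme of myeloid cells.

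The deposited tables held 69667759 UMIs on 10141 barcodes in NT, 78585759 on 15346 in RT1, 108699844 on 14994 in RT2 and 85660188 on 15324 in RT3. The table of RT2 stood apart, since it listed 18605 genes by symbol alone and held no barcode above 11.95% mitochondrial UMIs, whereas the top barcode had 92.6% for NT, 91.5% for RT1 and 97.0% for RT3. The members were shallow cells. Their median depth was 1498 UMIs in NT, 1580 in RT1, 2426 in RT2 and 1347 in RT3, against a median of 8287, 6556, 9182 and 7116 UMIs in tumor cells (Rhox5 at least 3 and Lyz2 at most 1). Summed over members, NT had 413374 UMIs and the RT libraries 1428955, 1787609 and 1003717. Of 2360 distinct barcode sequences among members, 4 occurred in more than 1 library.

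The label was checked against lists of cell type markers. All 8 monocyte markers, among them Lyz2 of the rule as the most abundant, passed the filter on low levels, with a summed level of 15792 CPM in NT against 19054, 14120 and 17010 CPM in RT (CPM, the UMIs of a gene per 1000000 UMIs summed over the members of a library). Ly6c2 had 680 CPM in NT against 1076, 1310 and 1222 CPM in RT. Ccr2, the receptor that brings monocytes into tissue, had 443, 533, 473 and 332 CPM in the same order. Plac8 had 1212, 777, 1270 and 910 CPM. These 3 genes were not part of the rule, and every library held them. Without Lyz2 and Chil3, the genes of the rule, the other 6 monocyte markers summed to 3503 CPM in NT against 4664, 4733 and 4164 CPM in RT. The lists of lymphocytes, mast cells and red cells were low. The B cell list summed to 0, 0, 0.559 and 0.996 CPM, the T cell list to 46.0, 0, 20.1 and 5.98 CPM with Cd4 at 0, the mast cell and basophil list to at most 0.700 CPM and the erythroid list to at most 4.84 CPM. The macrophage list summed to 1176, 1606, 995 and 1398 CPM, with Mrc1 as its most abundant gene, and the neutrophil list to 302, 529, 520 and 464 CPM, led by Trem1. The rule caps C1q, Csf3r and Retnlg, and without these the lists summed to 772, 1237, 759 and 1020 CPM for macrophages and to 283, 487, 485 and 443 CPM for neutrophils. The low level of the genes it caps is no check of the name. The name monocyte is used here for the presence of Ly6c2, Ccr2 and Plac8 in the sums over members. Many single members held no UMI of them. Ly6c2 was detected in 35.3% of NT members and 43.5%, 57.0% and 45.6% of RT members. For Ccr2 the shares were 41.5%, 46.7%, 51.8% and 31.7%, and for Plac8 45.2%, 38.4%, 59.0% and 41.6%. Mrc1 of the macrophage list was detected in 24.1%, 43.1%, 34.8% and 30.5%.

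Some other lists differed between the libraries. The dendritic cell list summed to 50.8 CPM in NT against 10.5, 12.3 and 12 CPM in RT, with Cd209a as its most abundant gene (36.3 CPM in NT against 0.700, 4.48 and 6.97 CPM in RT) and Xcr1 at 0. The platelet list summed to 336 CPM in NT against 1187, 682 and 1883 CPM in RT, all of it Ppbp and Pf4, while Itga2b, Gp1bb and Treml1 were at 0 in every library. The fibroblast list summed to 46.0, 146, 345 and 751 CPM, led by Col3a1. The NK cell list summed to 12.1, 104, 32.4 and 58.8 CPM with Gzma as its leading gene, and the endothelial list to 12.1, 66.5, 42.0 and 24.9 CPM with Pecam1. The tumor cell list summed to 1038, 712, 1405 and 1001 CPM, led by Tmsb10, with Prrx2 at 0. Their part in the differences between RT and NT was not tested beyond the values given for single genes.

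The members took a larger share of the kept barcodes in each RT tumor than in the NT pool. They were 241 of 9976 barcodes in NT (2.42%, interval 2.12 to 2.74%), 810 of 15029 in RT1 (5.39%), 683 of 14993 in RT2 (4.56%) and 630 of 15060 in RT3 (4.18%). The RT mean was 4.71% ± 0.62 (SD, n = 3), 1.95 times the NT value, and all RT libraries lay above the NT interval. Without RT1, RT2 or RT3 in turn the RT mean stayed between 1.95 and 2.56 percentage points above NT. The gap was 0.697 points under stricter upper limits and 1.09 when the rule was applied to cells thinned to 3000 UMIs. It was 1.14 among members with no Chil3 UMI and 1.35 without members carrying UMIs of other cell types. Tumor cells took 61.2% of barcodes in NT and 42.9% ± 5.43 in RT, so shares of all barcodes move together. Among Lyz2-positive myeloid barcodes (Lyz2 at least 3, with the same limits on neutrophil and tumor genes, 12230 in all) the share of members was not higher in RT. It was 22.5% in NT (interval 20.1 to 25.1%) against 19.2%, 16.8% and 21.8% in RT, a mean of 19.3% ± 2.51. RT3 lay inside the NT interval and RT1 and RT2 below it. The myeloid barcodes as a whole went from 10.7% of kept barcodes in NT to 24.8% ± 4.88 in RT. Shares of dissociated cells do not count cells per tumor.

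**Figure D1:**
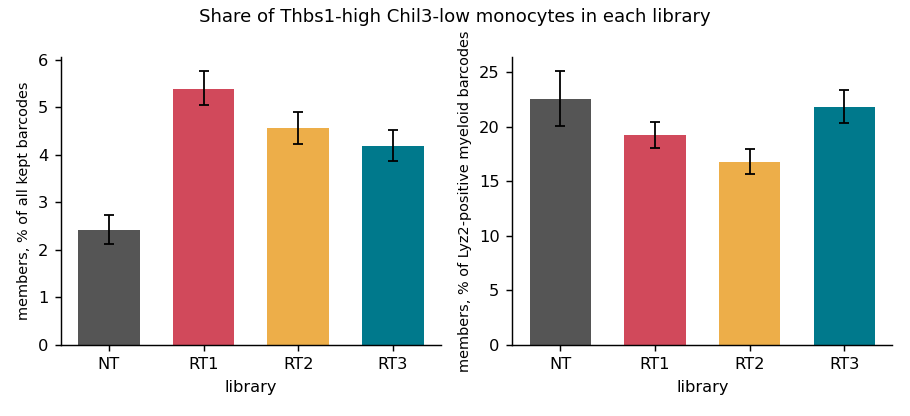
Bars give the members as a percentage of all kept barcodes (left) and of the Lyz2-positive myeloid barcodes (right) in each library, and error bars the exact 95% Clopper-Pearson interval, which covers counting error only. On the left all 3 RT bars (4.18 to 5.39%) stand above NT (2.42%), and on the right NT (22.5%) is the highest bar.

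Cells with high Chil3 had a wider gap in share. Barcodes with at least 5 Chil3 UMIs and at most 4 C1q UMIs, at any Thbs1 level, numbered 10 in NT against 151, 269 and 491 in RT1, RT2 and RT3, or 0.10% of barcodes in NT and 2.02% ± 1.14 in RT. Within the members, too, the share with no Chil3 UMI was 88.4% in NT against 73.7%, 70.7% and 63.0% in RT1, RT2 and RT3. RT members therefore lay closer to the upper Chil3 limit than NT members.

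The limits of the rule cut through a continuum. Of 8053 barcodes with at least 5 Thbs1 UMIs, 29.4% were members, and members held 28.5% of the 154464 Thbs1 UMIs of all kept barcodes. Another 2038 failed only the C1q limit and 1159 only the Chil3 limit. The members' Thbs1 count had a median of 14 UMIs (quartiles 9 and 24, highest 121). There were 161 members at 5 Thbs1 UMIs and 177 barcodes just outside at 4, 154 members at 3 Lyz2 UMIs and 171 outside at 2, 250 members at 2 Chil3 UMIs and 210 outside at 3, and 122 members at 4 C1q UMIs and 114 outside at 5. At the neutrophil limit 151 members had 1 UMI and 22 barcodes lay outside at 2, and at the Rhox5 limit the counts were 253 and 37.

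The 4 genes given as marks of these cells were compared with all other kept barcodes of the same library. This contrast was set by the rule and is given as a description. A log2 ratio of at least 1 in all 4 libraries was met by 669 of 5227 genes (12.8%). Thbs1 had 11624 CPM in NT members against 10391, 7512 and 10857 CPM in RT members, and 150 to 384 CPM in the other barcodes. Cxcl3 had 651, 1719, 795 and 2258 CPM, at least 4.22 above the rest on the log2 scale in each library, and was low in NT and RT2 and high in RT1 and RT3. Fn1 had 1154, 2134, 1247 and 1171 CPM, which was 0.94 to 1.46 above the rest, and tumor cells also expressed it. Lyz2 had 12200, 14189, 9235 and 12521 CPM, 1.39 to 4.08 above the rest.

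Apart from Thbs1, the genes with the highest smallest ratio over the 4 libraries were Ccr2 (4.24), B3gnt5 (4.24), Cxcl3 (4.22), F10 (4.16), Inhba (4.11), Trem1 (4.01), Gpr141 (3.90), Il1b (3.90), Mcemp1 (3.88), Mmp8 (3.82) and Cytip (3.78), all as log2 ratios. F10 encodes coagulation factor X, Inhba a subunit of activin A, Trem1 a receptor that amplifies inflammatory signals in myeloid cells, Il1b the cytokine interleukin 1 beta and Mmp8 a collagenase. F10 had 104 CPM in NT members against 85.4, 87.8 and 92.7 CPM in RT, against 0.639 to 4.93 CPM in other barcodes.

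Members were next set beside 3 other myeloid populations of the same libraries, which is again a description, and the genes of the rule are left out of the rankings. C1q-high cells (C1q sum at least 10, Thbs1 and Chil3 at most 2) are macrophage-like and numbered 3120. Against them 236 of 4621 genes were higher in members in all 4 libraries (5.11%) and 165 lower (3.57%). A sum of 0 was set to a floor of 3 counts, and 1 of the higher genes, Col1a1, was called through this floor alone. The highest were B3gnt5 (smallest log2 ratio 5.60), Mmp8 (5.18), Vcan (5.14), Cd24a (4.99), Inhba (4.54), Slc7a11 (4.37), Cytip (4.32) and F10 (4.04). Vcan, the matrix proteoglycan versican that marks classical monocytes, had 259 CPM in NT members against 723, 472 and 546 CPM in RT members, and 7.33 to 16.7 CPM in C1q-high cells. The lowest were Ccl8 (-5.02), Cbr2 (-4.65), Npl (-4.62), Bmp2 (-4.49), Lyve1 (-3.79), Fcgrt (-3.68), Gdf15 (-3.63) and Phyhd1 (-3.53), each as the log2 ratio nearest to 0. Ccl8, a monocyte-attracting chemokine, had 67.7, 129, 54.3 and 102 CPM in members and 2195, 7809, 5796 and 7759 CPM in C1q-high cells. Lyve1, a hyaluronan receptor of resident macrophages, had no UMI in NT members, so its NT ratio is set by the floor.

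Thbs1-low cells met every limit of the rule but held at most 2 Thbs1 UMIs, and numbered 1573. They differed from the members in few genes, with 21 of 4836 higher in members (0.434%) and 31 lower (0.641%). Cxcl3 (smallest log2 ratio 1.69), Thbd (1.49), Vegfa (1.39), Vcan (1.30), Trem1 (1.28), Mmp19 (1.23) and Mmp8 (1.22) were higher in members. Thbd encodes thrombomodulin, an anticoagulant receptor, and Vegfa the growth factor of vessels. Vegfa had 1219, 684, 638 and 531 CPM in members and 268, 190, 193 and 202 CPM in Thbs1-low cells. Lower in members were Ccl17 (-2.56), Fcgrt (-2.07), Ccr7 (-2.02), Ccl8 (-1.99), Serpina3g (-1.70), Plet1 (-1.68), Lyve1 (-1.42) and Cbx6 (-1.40). The printed ratios of Plet1 and Lyve1 are those of NT and rest on almost no UMIs, with 1 UMI of Plet1 in members against 2 in Thbs1-low cells, and no UMI of Lyve1 in members, set to the floor, against 5. Ccl17 had 1 UMI in NT members and none in RT3 members. Ccl17 and Ccr7 are known from dendritic cells, and Ccl8 and Lyve1 from macrophages, and genes of both kinds were thus present in the Thbs1-low cells. With edgeR's TMM factors in place of total UMIs 51 genes were higher and 18 lower in members, and with median-of-ratios factors 37 and 21.

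Against Chil3-high cells at any Thbs1 level, 9 of 4531 genes were called higher in members (0.199%) and 12 lower (0.265%). The NT side of this contrast rests on 10 cells with 17987 UMIs, and a call needed all 4 libraries. The low counts are limited by this and do not show that the populations are alike. The Chil3-high population was widened after the data were seen because the first definition held 1 NT cell. The MHC class II genes were higher in members, with smallest log2 ratios of 2.73 for H2-Aa, 2.23 for H2-Ab1, 2.06 for H2-Eb1 and 1.73 for Cd74. Rgs1 (1.78), Cxcl1 (1.44) and Mmp12 (1.04) were also higher. The NT Chil3-high cells held 2 UMIs of H2-Aa, 3 of H2-Ab1, 2 of Cd74 and 4 of Cxcl1, and none of H2-Eb1, Rgs1 and Mmp12, whose NT ratios are set by the floor. Hsd11b1 (-1.64), Nrg1 (-1.35), Ly6c2 (-1.28), Ifitm6 (-1.26), Siglece (-1.24) and Hp (-1.06) were lower, with 1 or 2 UMIs in NT Chil3-high cells for Hsd11b1, Nrg1, Siglece and Hp. Of the 12 lower genes, S100a8 and Napsa had no UMI in NT Chil3-high cells and were called through the floor alone, which leaves 10. S100a8 had 2.42 CPM in NT members and was lower in members in the RT libraries only, at 27.3, 60.4 and 19.9 CPM against 133, 388 and 130 CPM. Thbs1 stood at 14066 CPM in the NT Chil3-high cells and at 10378, 6286 and 11985 CPM in those of RT, between -0.28 and 0.26 from the members on the log2 scale. The Thbs1 level of members is bounded from below by the rule.

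Within the members, RT was compared with NT over 4572 genes with a mean of at least 25 CPM. A gene was called when its log2 ratio to NT was at least 1 in every RT library, or -1 or less in every RT library. By this rule of size 193 genes were higher (4.22%) and 28 lower (0.612%), and the median log2 ratio of all 4572 genes was 0.11, so list medians are read beside 0.11. Many genes lay on one side of NT in all RT libraries, with 1939 of the 4572 above NT (42.4%) and 1111 below (24.3%). The RT ratios share the NT library, and its part in these shares was not tested. Counts of list genes on one side are read beside these shares, and counts of called list genes beside 4.22% and 0.612%. The median was 0.02 with TMM factors and 0.01 with median-of-ratios factors, under which 158 and 157 genes were higher and 43 and 44 lower. Each of the 28 lower genes was lower under both scalings. Of the higher genes, 123 had fewer than 10 UMIs in NT members, and none of the lower genes did. Among 1494 genes with a mean of at least 100 CPM, 40 were higher and 16 lower. When only 2 RT libraries had to pass, the lower genes numbered 45 without RT1, 53 without RT2 and 52 without RT3.

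The MHC class II genes were the group with the lowest median. These genes encode the molecules that present peptides to CD4 T cells, and Cd74 encodes their chaperone, the invariant chain. Of 6 kept members of the list, 4 were called lower (0.612% of all genes were), none higher, and the list median was -1.77. H2-Aa had 6657 CPM in NT (interval 6411 to 6911) against 1304, 1586 and 1840 CPM in RT, a mean log2 ratio of -2.09 ± 0.25 (SD, n = 3). H2-Ab1 had 4995 CPM in NT against 1181, 1506 and 1413 CPM in RT (-1.88 ± 0.18). H2-Eb1 had 3820 CPM in NT against 553, 874 and 786 CPM in RT (-2.40 ± 0.35). Cd74 had 1026 CPM in NT against 222, 501 and 302 CPM in RT (-1.67 ± 0.59), with RT2 nearest to the threshold. NT stood above every RT library for all 4 genes, and no RT library came near the NT interval.

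The difference also showed as a share of cells. With each member thinned to 1000 UMIs, which 187 NT members and 630, 619 and 460 RT members reached and 54, 180, 64 and 170 did not, H2-Ab1 was detected in 55.6% of NT members (interval 48.2 to 62.9%) and 24.9%, 26.7% and 25% of RT members. Without thinning the shares were 52.3%, 28.0%, 33.7% and 25.7%. Tumor cells, which are deeper, had shares of 1.48%, 0.657%, 3.34% and 0.984% when thinned alike and of 9.29%, 4.41%, 17.7% and 5.89% without thinning. A fixed number of free RNA molecules per barcode would be diluted more in the deeper cells by thinning, so both shares are given, and the level of free RNA itself was not estimated. The thinning depth was lowered after the data were seen, because only 8 NT members reached the 4000 UMIs first set. At that depth the H2-Ab1 share was 50% in NT against 64.3%, 43.6% and 73.7% in RT, a mean 10.5 percentage points above NT, with RT2 below NT and 28, 94 and 19 RT members left.

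Class I genes did not share the class II pattern. None of 11 kept class I genes was called and the list median was 0.02. H2-K1 had 1959 CPM in NT against 2067, 1993 and 1903 CPM in RT, H2-D1 had 4577, 4459, 4009 and 4468 CPM, and B2m had 5109, 4480, 4520 and 4750 CPM.

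The levels of class II genes moved together with those of Cd209a and Mgl2, which are known from monocyte-derived dendritic cells and tissue macrophages. Mgl2 had 237 CPM in NT against 105, 116 and 72.7 CPM in RT. When members with 2 or more UMIs of dendritic, T, NK, B, fibroblast, endothelial or platelet markers were left out (27 in NT against 216, 152 and 179 in RT), the log2 ratio was -2.01 for H2-Aa, -1.83 for H2-Ab1 and -2.36 for H2-Eb1. Under stricter limits, with no Chil3, Csf3r, Retnlg or Rhox5 UMI and at most 1 C1q UMI (150 members in NT against 386, 327 and 279 in RT), the same genes had -2.17, -1.91 and -2.50. Among members with no Chil3 UMI, the other limits kept, they had -1.98, -1.76 and -2.24, Cd74 had -1.62 and Mgl2 -1.01, and the last 2 lost their call. Mgl2 lost it under 5 alternatives in all. This limit was added after the data were seen. Under it 194 genes were higher and 33 lower, and the log2 ratio was -1.70 for Il1b, -1.73 for Hspa1a, -1.48 for Cxcr4, 2.13 for Il1r2 and 3.21 for Areg, which are described below.

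The promoters of H2-Aa and H2-Eb1, 2 of the 4 called class II genes, are shown. H2-Ab1 had no entry among the promoters used, and Cd74 was not looked up. The sequences are from RefSeq. The 120 bases before the gene start are printed on the strand of the gene, from build GRCm38.p6, for H2-Aa at chr17:34287824-34287943 (minus strand) and for H2-Eb1 at chr17:34305747-34305866 (plus strand). Capitals mark ATTGG on the printed strand or its reverse complement CCAAT, the letters at the heart of the Y box that class II promoters are known for.
H2-Aa: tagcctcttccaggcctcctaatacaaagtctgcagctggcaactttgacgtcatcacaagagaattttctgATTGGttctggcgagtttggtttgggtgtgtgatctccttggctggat
H2-Eb1: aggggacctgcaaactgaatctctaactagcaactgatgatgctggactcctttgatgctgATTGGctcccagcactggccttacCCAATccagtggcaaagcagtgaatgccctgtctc

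In H2-Aa the letters begin 48 bases before the gene start, and in H2-Eb1 59 and 35 bases before it. Of 32851 promoters in the table, 21.29% hold ATTGG or CCAAT in this window, so the letters alone are common. A match is a description of the sequence.

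Interleukin 1 beta, a cytokine that starts inflammation and is made by activated monocytes, was lower in RT. Il1b had 14007 CPM in NT (interval 13648 to 14372) against 4489, 5102 and 3841 CPM in RT, a mean log2 ratio of -1.66 ± 0.21 (SD, n = 3). It was detected in 89.8% of thinned NT members and 75.7%, 80.9% and 64.6% of thinned RT members, against 0.394 to 0.844% of thinned tumor cells. Without thinning the shares were 93.4%, 80.7%, 86.2% and 70.3% of members and 2.25 to 4.95% of tumor cells. Il1r2, the decoy receptor that takes up interleukin 1 without passing on a signal, went the other way, with 36.3 CPM in NT against 257, 176 and 189 CPM in RT (2.49 ± 0.29). The decoy was detected in 2.14% of thinned NT members and 14.3%, 13.1% and 12.6% of RT members, against 0.131 to 0.272% of tumor cells, and without thinning in 4.56%, 19.1%, 24.6% and 17.0% of members and 0.983 to 1.94% of tumor cells. It rested on 15 UMIs in NT. Il1b and Il1r2 were the called genes of the inflammatory cytokine list, whose 11 kept genes had a median of -0.46. Osm, which encodes oncostatin M, had 1930 CPM in NT against 2491, 2673 and 1306 CPM in RT, and Nlrp3, an inflammasome sensor, had 1190, 789, 771 and 1057 CPM.

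NF-kB is the transcription factor that drives Il1b and many other inflammatory genes, and its targets include its own brakes. Of 16 kept genes of the NF-kB list 10 lay below NT in all RT libraries (24.3% of all genes did), the list median was -0.66, and the called genes were Tnip3 (lower), Ier3 and Icam1 (higher). Tnip3, an inhibitor of the pathway, had 169 CPM in NT against 44.8, 35.8 and 38.9 CPM in RT (-2.09 ± 0.16). Nfkbia, the inhibitor that holds NF-kB in the cytoplasm, had 3312, 2084, 1592 and 2753 CPM, Tnfaip3 had 2339, 1339, 1133 and 1268 CPM and Zfp36, which degrades cytokine messages, 10494, 7690, 9778 and 4914 CPM. Ier3, an early response gene linked to survival, had 411 CPM in NT against 1533, 2299 and 918 CPM in RT (1.85 ± 0.66). Icam1, an adhesion molecule for leukocytes, had 38.7 CPM in NT against 148, 194 and 113 CPM in RT (1.93 ± 0.39), and its call was lost under the stricter limits (1.68) and after thinning to 1000 UMIs.

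The heat shock list had a median of -0.88, and 9 of its 10 genes lay below NT in all RT libraries, as did 24.3% of all genes. Called lower were Hspa1a, Hspa1b and Dnaja1, which encode inducible Hsp70 chaperones and a partner of theirs. Hspa1a had 8353 CPM in NT against 2209, 3219 and 1999 CPM in RT (-1.79 ± 0.36), Hspa1b had 4751, 1010, 1512 and 1076 CPM (-2.01 ± 0.31), and Dnaja1 had 1081, 464, 487 and 443 CPM (-1.22 ± 0.07). Hspa8 had 1660, 706, 1148 and 843 CPM and was not called. Hspa1a was detected in 79.7% of thinned NT members and 59.2%, 67.5% and 50.4% of RT members, against 1.61 to 2.81% of tumor cells. Without thinning the shares were 82.2%, 63.0%, 79.2% and 56.0% of members, with RT2 close to NT, and 7.23 to 18.1% of tumor cells.

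The immediate early genes, which cells switch on within minutes of a stimulus, had a median of -0.58, with 13 of 14 below NT in all RT libraries (24.3% of all genes) and none called. Fos had 11752 CPM in NT against 8932, 10460 and 4949 CPM in RT, Dusp1 had 7913, 6275, 7899 and 3677 CPM and Atf3 had 3900, 2610, 3620 and 2379 CPM. RT3 was the lowest library for all 3 genes. Heat shock and immediate early genes are known to respond to handling and tissue dissociation. Here the handling of the NT pool and the absence of radiation cannot be told apart.

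The promoter of Hspa1a (RefSeq, GRCm38.p6, chr17:34972157-34972276, minus strand) is shown over the same 120 bases, with capitals at GAANNTTC, the core letters of the heat shock element facing each other.
Hspa1a: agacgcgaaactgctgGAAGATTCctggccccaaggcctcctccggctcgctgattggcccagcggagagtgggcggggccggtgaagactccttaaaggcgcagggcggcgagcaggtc

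These letters begin 104 bases before the gene start. The pattern GAANNTTC reads the same on both strands and occurs in 3.199% of the 32851 promoters. The window of Hspa1b differs from that of Hspa1a at 1 of 120 bases. The genes are near-identical copies, so the split of reads between them depends on the authors' counting and is uncertain.

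Other lower genes were receptors and regulators. Cxcr4, the chemokine receptor that answers Cxcl12, had 1287 CPM in NT against 330, 516 and 432 CPM in RT (-1.62 ± 0.33), and was detected in 57.2% of thinned NT members and 23.2%, 32.1% and 28.7% of RT members (66.8%, 33.2%, 48.6% and 32.5% without thinning), against 0.150 to 0.475% of thinned and 1.40 to 3.41% of all tumor cells. It was the called gene among 18 receptors of growth factors and cytokines, whose median was 0.03. The other receptors were not called. In that list Csf1r, the receptor of the macrophage growth factor, had 353, 896, 627 and 439 CPM, and Csf2ra had 803, 787, 737 and 625 CPM. Ptger4, a receptor of prostaglandin E2, had 302, 81.9, 80.6 and 38.9 CPM (-2.25 ± 0.61), as the called gene of 7 in the prostaglandin and leukotriene list (median 0.05). Ptgs2, which makes prostaglandins, had 1306, 795, 609 and 777 CPM, and Alox5ap, a leukotriene gene, 1096, 1338, 1381 and 1501 CPM.

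Pdgfb, a growth factor for the cells that wrap vessels, had 91.9 CPM in NT against 14.0, 6.15 and 13.9 CPM in RT (-3.11 ± 0.68). Sema4d, a semaphorin, had 208, 49.7, 41.4 and 61.8 CPM, and Prdm1, a transcriptional repressor, had 223, 74.9, 76.6 and 70.7 CPM. Bambi, a decoy receptor of the TGF-beta family, had 106, 21.0, 33.0 and 13.9 CPM. F3, the tissue factor that starts coagulation, had 87.1, 26.6, 21.8 and 39.9 CPM. Its log2 ratio was -1.03 without members carrying UMIs of other types, -1.10 among members with no Chil3 UMI and -0.86 after thinning to 1000 UMIs, and the call was lost under each, and under 5 alternatives in all. The remaining genes called lower were Csnk1g2, Cyp51, Med26, Hes1, Lpar6, Dpp7, Nr4a2, Nfkbid, Pilrb1, Sgk1 and Itgal, with mean log2 ratios between -1.05 and -1.73. Each of these lost its call under at least 1 alternative, Sgk1 and Pilrb1 under 5, Hes1 and Itgal under 4, Nfkbid under 3, Csnk1g2 and Med26 under 2 and Cyp51, Lpar6, Dpp7 and Nr4a2 under 1. The log2 ratio of Lpar6 was -0.34 after thinning to 1000 UMIs. Each of the 28 lower genes had at least 21 UMIs in NT.

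**Figure D2:**
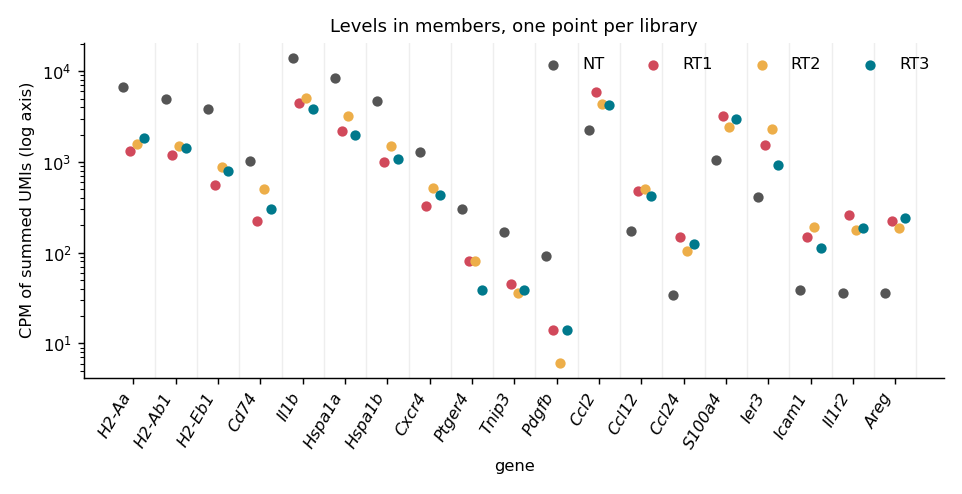
Each point is the level of a gene (CPM of UMIs summed over members, log axis) in 1 library, for genes called lower (H2-Aa to Pdgfb), Ccl2, which was not called, and genes called higher (Ccl12 to Areg). NT points lie above all RT points on the left, for H2-Aa at 6657 against 1304 to 1840 CPM, and below them on the right, for Areg at 36.3 against 186 to 240 CPM.

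Chemokines of the CC family draw monocytes and other leukocytes. Of 10 kept genes 2 were called higher (4.22% of all genes were) and none lower. In all RT libraries 7 lay above NT (42.4% of all genes did), and the median was 0.61. Ccl12, a ligand of Ccr2, had 174 CPM in NT against 476, 501 and 420 CPM in RT (1.41 ± 0.13), and Ccl24, which attracts eosinophils, had 33.9, 148, 105 and 125 CPM (1.88 ± 0.25). Both lost their call among members with no Chil3 UMI, at mean log2 ratios of 1.10 and 1.57. Ccl2, the main ligand of Ccr2, had 2267, 5864, 4315 and 4194 CPM (1.06 ± 0.27), and RT2 and RT3 missed the threshold at 0.93 and 0.89. Ccl6 had 4739, 8457, 7794 and 8464 CPM (0.80 ± 0.07), and Ccl4 had 3585, 2899, 2920 and 3048 CPM. Ccl2 was detected in 47.6% of thinned NT members and 86.3%, 78.5% and 77.2% of RT members, and without thinning in 58.9%, 87.2%, 86.5% and 82.5%. Tumor cells express Ccl2 (74.9 to 80.6% of thinned and 96.1 to 97.3% of all tumor cells), and the part of free RNA in these shares was not tested.

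Many chemokines of the CXC family draw neutrophils. Of 9 kept genes Cxcl5 and Ppbp were called higher, and the median was 0.31. Cxcl2 had 3827, 4181, 4264 and 3463 CPM, Cxcl1 had 2255, 1444, 1043 and 2092 CPM and Cxcl10 had 1318, 1197, 1708 and 2143 CPM. Cxcl5 rested on 1 UMI in NT. Ppbp had 128 CPM in NT against 714, 335 and 1249 CPM in RT, and it is also a platelet marker. Without the members that carry UMIs of other types, its own among them, its log2 ratio was -0.17. Cxcl3, detected in 17.6% of thinned NT members and 36.8%, 21.6% and 39.6% of RT members (0.123 to 0.533% of tumor cells) and without thinning in 19.9%, 40%, 26.6% and 39.7% (0.786 to 2.04% of tumor cells), was not called, since RT2 had a log2 ratio of 0.29.

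Areg, the growth factor amphiregulin, a ligand of the EGF receptor, had 36.3 CPM in NT against 223, 186 and 240 CPM in RT (2.57 ± 0.19). It was detected in 2.67% of thinned NT members and 10.3%, 7.59% and 10.7% of RT members, against 0.844 to 1.83% of tumor cells. Without thinning it was detected in 2.90%, 11.9%, 10.5% and 11.6% of members and in 7.18%, 10.2%, 7.84% and 9.83% of the deeper tumor cells, so its unthinned share was below that of tumor cells in NT and close to it in RT. Hbegf, the other kept gene of that list (median 1.57), had 48.4, 86.1, 59.9 and 72.7 CPM. Areg stood in 15 UMIs in NT, and its RT values lay close together.

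S100a4, a calcium-binding protein of motile cells, was the called gene of the monocyte identity list (16 kept, median 0.41), with 1038 CPM in NT against 3175, 2455 and 2983 CPM in RT (1.46 ± 0.19). Cd14 had 3372, 2389, 2227 and 2621 CPM and Nr4a1, a nuclear receptor of patrolling monocytes, 7185, 2759, 3822 and 2603 CPM. Nr4a1 (-1.25 ± 0.30) was below NT in all RT libraries and missed the threshold in RT2. None of 22 myeloid transcription factors was called, 13 were below NT in all RT libraries (24.3% of all genes) and the median was -0.24. Klf2 had 4884, 2551, 3605 and 1736 CPM and Klf6 4115, 3820, 4676 and 3526 CPM. Of 10 kept macrophage identity genes none was called (median 0.03), with Mrc1 at 300, 763, 395 and 531 CPM and Selenop at 394, 501, 398 and 480 CPM. Gpnmb, a gene of lipid-laden macrophages, was higher at 16.9, 97.3, 81.7 and 156 CPM, as the called gene of 15 in that list (median 0.26), where Spp1, which tumor cells express strongly (76.5 to 84.8% of thinned tumor cells), had 605, 1393, 658 and 1006 CPM, Ctsb 2131, 2489, 2181 and 3043 CPM and Lgals3 1270, 1001, 1915 and 1406 CPM.

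Of 17 kept genes of matrix and clotting Sparc was called higher and F3 lower, 7 lay above NT and 5 below NT in all RT libraries (42.4% and 24.3% of all genes), and the median was 0.04. Thbs1 had a log2 ratio of -0.30 ± 0.29, which is a description only, since the rule limits its level in both groups. Fn1 had 0.34 ± 0.48 and Tgfbi 0.37 ± 0.20. Sparc, a collagen-binding protein of fibroblasts, had 24.2, 94.5, 143 and 136 CPM. Tumor cells held more of it, at 419, 380, 576 and 436 CPM, and had 792, 1332, 1196 and 1141 CPM of Col3a1. The fibroblast list, led by Col3a1, summed to 46.0, 146, 345 and 751 CPM. Its 3 kept genes had median log2 ratios of -0.79, 3.50 and 4.42 in RT1, RT2 and RT3, so not all of them were higher in RT1. The log2 ratio of Sparc was 0.52 after members with UMIs of other types were left out, and its call was lost under this and 2 other alternatives. Neither Fn1 nor Tgfbi was called. Among 11 thrombospondin receptors (median 0.18) Sdc3, a syndecan, was higher with 58.1, 225, 216 and 150 CPM, while Cd47 had 339, 353, 362 and 329 CPM, Itgb1 215, 302, 232 and 209 CPM and Calr 295, 309, 462 and 352 CPM. Of 11 matrix proteases and inhibitors none was called (median 0.64). Adam8 had 460, 1103, 768 and 918 CPM, Ctsl 755, 1416, 830 and 1533 CPM and Mmp19 433, 666, 602 and 771 CPM. These 3 genes were higher in RT1 and RT3 than in RT2. In the TGF-beta list of 13 (median 0.05) Ltbp3 was higher at 12.1, 37.1, 33.6 and 41.8 CPM, Id2 had 1147, 1146, 1108 and 1314 CPM and Id3 had 298, 100, 116 and 153 CPM.

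Lists of metabolism and stress held 1 call in all, and their medians lay between 0.08 and 0.30. Of 24 glycolysis and hypoxia genes (median 0.10) Ndrg1 was called higher, at 60.5, 221, 145 and 286 CPM. Pgk1 had 1526, 1530, 1251 and 1541 CPM, Aldoa 1152, 1162, 1398 and 1216 CPM and Hilpda 905, 1171, 1022 and 1840 CPM. None of 10 arginine and polyamine genes was called (median 0.08). Odc1, which makes polyamines, had 3058, 3118, 2921 and 3087 CPM and Sat1, which helps to break them down, 781, 746, 609 and 861 CPM. Odc1 was thus about level in all libraries. None of 13 oxidative stress and iron genes was called (median 0.30), though Fth1, the heavy chain of ferritin, had 5249 CPM in NT against 10878, 9074 and 11916 CPM in RT, with RT2 short of the threshold at 0.79. Hmox1 had 1243, 1304, 943 and 2930 CPM and Prdx1 1391, 1181, 884 and 1597 CPM. Hmox1 was high in RT3 alone. None of 6 ATF4 genes was called (median 0.20). Slc3a2 had 641, 695, 731 and 812 CPM, Atf4 223, 214, 323 and 237 CPM and Ddit4 72.6, 93.1, 68.8 and 93.7 CPM.

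The remaining lists held few calls. In the interferon list of 23 (median 0.39) Isg20, Usp18 and Xaf1 were higher, each on 9 to 12 UMIs in NT. The call of Usp18 was lost under 6 alternatives, TMM and median-of-ratios factors and the stricter limits (0.76) among them, that of Isg20 under the stricter limits (1.11) and that of Xaf1 after thinning to 1000 UMIs (0.76). In the same list Cxcl10, Rsad2 (733, 483, 618 and 768 CPM) and Irf1 (721, 318, 712 and 516 CPM) were not called. Among 10 p53 targets (median 0.41) none was called. Cdkn1a, which stops the cell cycle after DNA damage, had 520, 938, 1120 and 734 CPM, Btg2 1722, 894, 1194 and 685 CPM and Plk2 972, 1179, 1262 and 677 CPM. Of 10 cycling genes none was called (median 0.28), and Mki67 was detected in 1.6% of thinned NT members and 1.7%, 0.5% and 1.1% of RT members, below the 3.48 to 8.13% of tumor cells. Without thinning the shares were 1.66%, 3.70%, 2.20% and 2.22% of members and 21.6 to 41.4% of tumor cells. In the checkpoint and uptake list of 11 (median 0.04) Lgals9 was higher at 84.7, 225, 185 and 200 CPM, Cd274, which encodes PD-L1, had 336, 202, 313 and 278 CPM and Lilrb4a 622, 1081, 830 and 896 CPM. Apart from Lgals9, a galectin, this list held no call. Of 16 pattern and lectin receptors (median 0.28) Tlr4 was higher on 11 UMIs in NT, a call that was lost under 6 alternatives, TMM and median-of-ratios factors among them, and Msr1 had 448, 712, 603 and 647 CPM and Clec4d 481, 574, 440 and 757 CPM. None of 15 death and survival genes was called (median 0.04), with Mcl1 at 1759, 1814, 1654 and 1964 CPM, Bcl2l11 at 658, 377, 421 and 532 CPM and Bcl2a1b at 329, 326, 257 and 244 CPM. Of these genes Bcl2l11, which promotes cell death, and Bcl2a1b, which opposes it, lay below NT in all RT libraries. Over the 29 lists 31 calls were made among 367 entries, 19 higher (5.18%) and 12 lower (3.27%), against 4.22% and 0.612% of all genes compared. Some genes stand in more than 1 list, and the lists were chosen with earlier results of these data known. The shares over lists are therefore a description only.

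**Figure D3:**
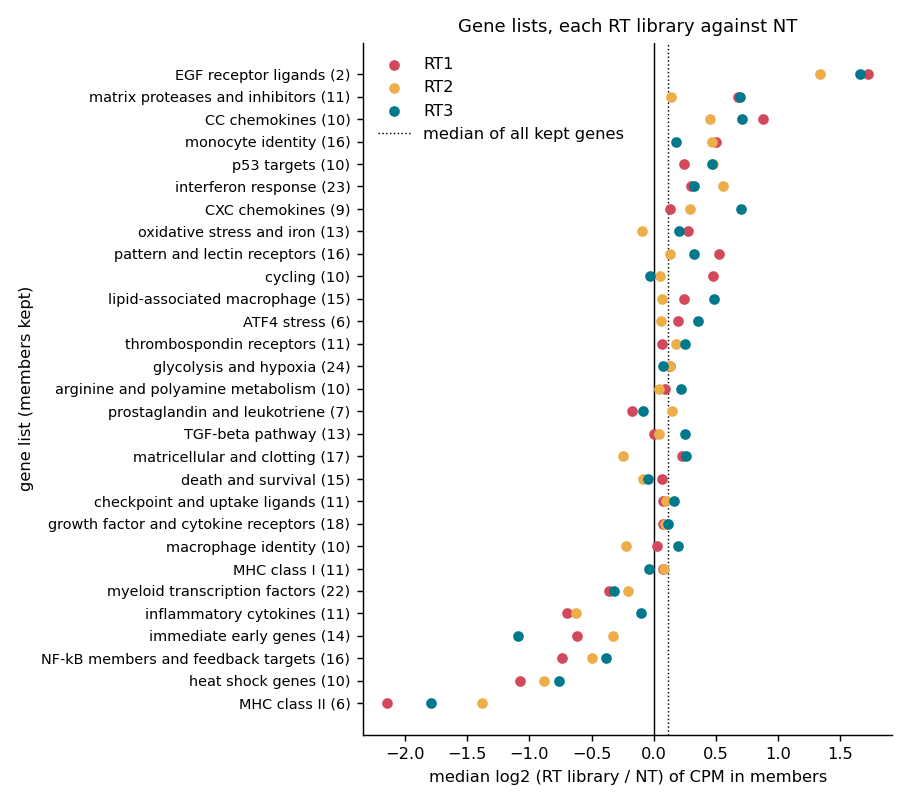
Each point is the median log2 ratio of an RT library to NT over the kept genes of a list, whose number stands in brackets, in members. The dotted line is the median of all kept genes (0.11). The 3 points of MHC class II genes (-1.77 over all RT libraries) lie farthest to the left, immediate early genes in RT3 (-1.09) lie left of the heat shock points (-1.07 to -0.77), and EGF receptor ligands (1.57, 2 genes) farthest to the right.

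The 12 genes with the highest smallest ratio were Htra3, Ackr3, Tnfrsf23, S100a8, Igfbp7, Ddx47, Inf2, Dpt, Snx8, Mrps16, Cd151 and Praf2, with mean log2 ratios from 2.60 to 4.26. Each had between 1 and 4 UMIs in NT members, so the size of these ratios rests on almost no NT counts. Htra3, a secreted protease, had 1 UMI in NT (2.42 CPM, interval 0.061 to 13.5) and 39.9, 51.5 and 48.8 CPM in RT. Igfbp7 and Dpt are known from fibroblasts and vessel cells, and their level in tumor cells was also higher in RT, at 130 and 293, 278 and 243 CPM for Igfbp7. For S100a4, Ier3, Rpl9 and Areg, picked among the better counted genes, values in tumor cells are given too, with the same NT library on both sides. S100a4 had 3477 CPM in NT tumor cells against 7717, 8116 and 7150 CPM in RT tumor cells, and Ier3 had 171, 640, 747 and 423 CPM. Rpl9, a ribosomal protein gene named after its values were seen, had 452 CPM in NT members against 1624, 1577 and 1289 CPM in RT members, and 703 CPM in NT tumor cells against 2811, 2539 and 1973 CPM in RT tumor cells. The RT values of these 3 genes were above NT in tumor cells as well. Among other genes called higher in members, Sdc3, Ccl12, Lgals9 and Il1r2 were also above NT in every RT library of tumor cells. Ackr3 went the other way, with 69.9 CPM in NT tumor cells against 60.9, 60.4 and 53.6 CPM in RT tumor cells. These genes are examples, and no tally over all called genes is given because the NT library is shared. Areg had 13.5, 22.1, 12.1 and 17.8 CPM in tumor cells.

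H2-Aa, Il1b and Hspa1a, chosen among the 28 lower genes, were also read in Thbs1-low and C1q-high cells, which again share the NT library. The first of them had 6213 CPM in NT against 834, 1621 and 1477 CPM in RT in C1q-high cells (-2.30 ± 0.52), and 7233, 2514, 3092 and 2980 CPM in Thbs1-low cells (-1.34 ± 0.16). Il1b had 1007, 256, 558 and 264 CPM in C1q-high cells (-1.59 ± 0.64) and 5409, 1959, 2385 and 1560 CPM in Thbs1-low cells (-1.48 ± 0.31). Hspa1a had 9546, 4382, 5538 and 5030 CPM in C1q-high cells (-0.94 ± 0.17) and 11573, 3393, 3544 and 3226 CPM in Thbs1-low cells (-1.77 ± 0.07). These 3 were below NT in all RT libraries in both populations.

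Cxcr4 and Ccl2 differed between the populations by value. Cxcr4 had 389 CPM in NT against 277, 368 and 428 CPM in RT in C1q-high cells (-0.15 ± 0.32), and 1178, 304, 472 and 464 CPM in Thbs1-low cells (-1.54 ± 0.36). Ccl2 had 5519, 6904, 5657 and 5859 CPM in C1q-high cells (0.15 ± 0.15) and 3753, 5084, 2287 and 3698 CPM in Thbs1-low cells (-0.10 ± 0.58). Il1r2 was at 2.93, 2.86, 3.31 and 4.22 CPM in C1q-high cells and at 50.6, 128, 122 and 138 CPM in Thbs1-low cells (1.35 ± 0.09). No test of a difference between populations was made, as each has 1 NT library.

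**Figure D4:**
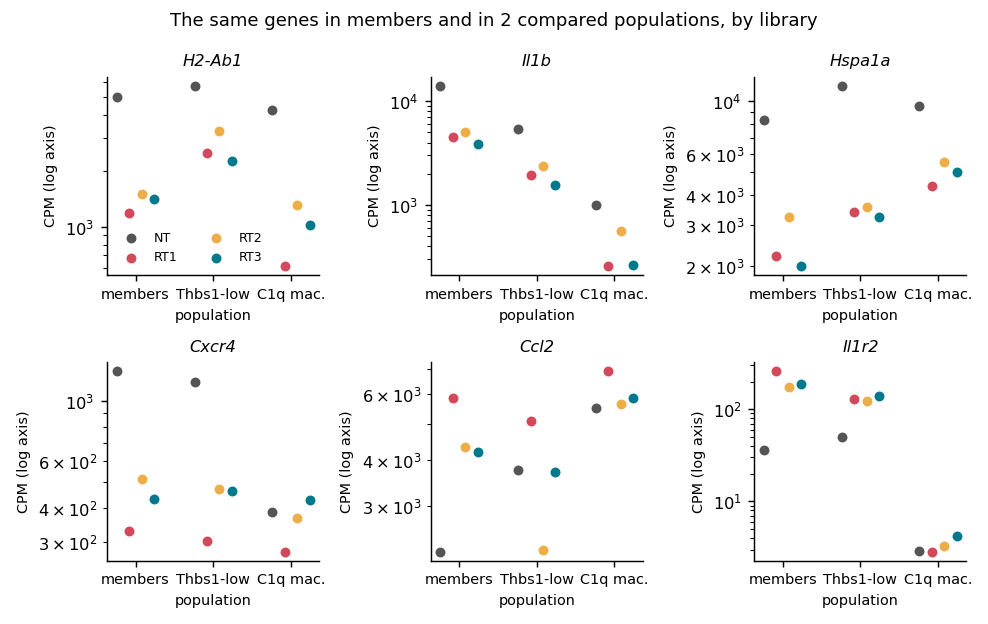
Levels of 6 genes (CPM of summed UMIs, log axis) in members, Thbs1-low cells and C1q-high cells, 1 point per library. For H2-Ab1, Il1b and Hspa1a the NT point lies above the RT points in every population, while for Cxcr4 in C1q-high cells NT (389 CPM) lies among the RT points (277 to 428 CPM).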

How the data were processed

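Cells of dissociated tumors were captured with the SeekOne MM 3′ microwell kit, sequenced on a NovaSeq and processed by the authors with SeekOne Tools. The submitters' processing notes also name STAR 2.5.1b, Subread 1.6.4, featureCounts, Cell Ranger and GRCm39 (mm39). The authors deposited UMI counts per gene and barcode as whole numbers without normalization. The table of RT2 held fewer genes and no barcode of high mitochondrial share. Whether a filter came before its deposit was not tested.

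The tables were joined on 18605 shared gene symbols. No doublet caller was run. UMIs were summed per library over each population defined by UMI limits and given as CPM. Genes with a mean of at least 25 CPM were called when the log2 ratio was past 1 in the same direction in every library, and a sum of 0 was set to a floor of 3 counts. Python 3.11.15 with numpy 2.4.6, scipy 1.17.1 and pandas 2.3.3 and, for TMM factors, edgeR 4.0.16 in R 4.3.3 were used.

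Named genes were the 12 leading genes against all other barcodes, the 8 highest and 8 lowest against each population, the 12 highest and 12 lowest called between RT and NT, the given markers and genes of the rule, and in each of 29 lists the 3 most abundant and the called genes. The other genes called lower were named because they were few. Some genes that this rule names are not reported here. The members and lists were chosen with earlier results of these data known. Alternatives were other scalings, filters, limits of the rule, thinning of cells to equal depth and leaving out each RT library. Thinning to 1000 UMIs, the limit of no Chil3 UMI and the wider Chil3-high population were added after the data were seen. Promoter sequences are from RefSeq (GRCm38.p6). Intervals assume independent UMIs.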

Additional observations from a re-analysis of the deposited data

Results flagged for a closer look

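Ccl12, a chemokine ligand of Ccr2, differed in opposite directions in the monocytes and in other myeloid cells. In the Thbs1-high, Chil3-low monocytes its log2 ratio of RT to NT was 1.45, 1.52 and 1.27 (174 CPM in NT against 476, 501 and 420 CPM). In C1q-high cells every RT library was below NT, with 2366 CPM in NT against 1880, 1483 and 1796 CPM and a mean log2 ratio of -0.47. In Thbs1-low cells every RT library was also below NT, with 793 CPM in NT against 765, 262 and 637 CPM and a mean log2 ratio of -0.66, though RT1 lay near NT. All samples of one population moved one way and all of the other the opposite way, which drew attention to the gene, and the difference was not tested. The same NT library enters all 3 comparisons.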

How the results depend on the processing

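No paired analysis was possible because NT is 1 library. The share of members was 2.29 percentage points higher in RT than in NT. It was 1.09 (1.42% in RT against 0.329% in NT) when the rule, with lower limits, was applied to cells thinned to 3000 UMIs, 1.14 among members with no Chil3 UMI, 0.697 under stricter upper limits, 1.35 without members carrying UMIs of other types, 1.95 to 2.56 with each RT library left out, and -3.23 as a share of myeloid barcodes, where the denominator itself was larger in RT.

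The 193 higher and 28 lower genes became 643 and 891 with no filter on low values (620 of the 891 had no UMI in NT and passed through the floor alone, which leaves 271), 40 and 16 at a mean of at least 100 CPM, 301 and 62 after thinning to 1000 UMIs, and 221 and 412 after thinning to 4000 UMIs, which left 8 NT members. Lower genes numbered 43 with TMM factors, 44 with median-of-ratios factors, 48 under stricter limits and 45 to 53 with each RT library left out, when fewer libraries had to pass. Higher genes then numbered 203 to 269. Against Thbs1-low cells 51 genes were higher and 18 lower with TMM factors, 37 were higher with median-of-ratios factors, and 139 were lower with no filter, 48 of them through the floor alone. Against Chil3-high cells 15 and 20 were higher with these factors and 92 lower with no filter, 79 of them through the floor alone. Against C1q-high cells no filter gave 601 and 271, with 181 of the 601 through the floor alone.

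Of 59 named genes, 23 kept ratios past the threshold in every alternative that gave a value, H2-Ab1, H2-Eb1, Ptger4, Prdm1, Il1r2 and Areg among them. This count took the ratios alone, so the filters on level and the leaving out of an RT library could not remove a gene. H2-Aa, Il1b, Hspa1a, Hspa1b, Cxcr4, Ier3, Bambi, Cyp51, Lgals9, Ltbp3 and Cd151 missed the threshold only after thinning to 4000 UMIs. Cd74 missed it there and with no Chil3 UMI, where 9 of the 59 missed it. After thinning to 4000 UMIs Tnip3 (0.49), Csnk1g2 (0.12), S100a8 (-0.19), Ppbp (-0.56), Usp18 (-2.26) and Tlr4 (-0.54) had log2 ratios of the opposite sign. Ppbp also had -0.17 without members carrying UMIs of other types, of which it is a marker. Thinned to 1000 in place of 4000 UMIs, the RT minus NT share of members with a UMI was -30.1 in place of 10.5 points for H2-Ab1 and 15.0 in place of 0.877 for Cxcl3. Genes with no NT UMI under an alternative gave no value there, at most 17 of the 59. Beyond these the cause of a change was not tested. Depth limits the calls of low genes, since 25 CPM is 10.3 UMIs in NT.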
